A study of Mus musculus with 6 samples.

Results

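The 4 microRNAs described here are both mature arms of the mouse hairpins miR-22 and miR-338, each reported as a responder to the myeloid transcription factor PU.1. Their names in the count table are mmu-miR-22-3p, mmu-miR-22-5p, mmu-miR-338-3p and mmu-miR-338-5p, and the species prefix is left out below. They were taken by name from a table of small RNA read counts, where each of the 4 has a single entry, out of 1915 distinct mature names in all. The libraries came from iBN cells, a mouse suspension line labelled as granulocyte-macrophage progenitors with a PU.1-inducible system, grown with GM-CSF and fetal bovine serum. Induced cells had been kept with doxycycline at 1000 ng/ml over 72 hours (3 libraries, trials 1 to 3), and uninduced cells of the same line had not been induced (3 libraries, trials 1 to 3). The labels do not give the alleles of the cells' own PU.1 gene. Both groups are of this line, so exposure to doxycycline and induction of PU.1 change together here. Cells lacking the system but given doxycycline were not analysed, and the level of PU.1 was not measured by this assay.

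A microRNA is cut from a hairpin in a longer transcript, first in the nucleus by Drosha and then in the cytoplasm by Dicer, which leaves a duplex of the 5p and the 3p arm. Usually one arm is kept in the Argonaute complex and the other is degraded, so the ratio of the arms describes a step after transcription. The kept arm pairs with messenger RNAs mainly through its seed, the bases 2 to 8 from its 5′ end. miR-22 is an abundant and conserved microRNA that has been reported to promote monocyte and macrophage differentiation downstream of PU.1. miR-338 lies in Aatk, the gene of a kinase best known from neurons, and is itself best known for promoting oligodendrocyte differentiation, while its 3p arm was also reported among the microRNAs that PU.1 turns on during macrophage development.

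The mature sequences are shown first because the seeds set the targets of each arm; capitals mark the seed, and the sequences are those of RefSeq on GRCm38.p6, the assembly also called mm10, which is the build in the submitters' processing notes.
miR-22-3p: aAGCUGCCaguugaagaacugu
miR-22-5p: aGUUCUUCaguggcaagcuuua
miR-338-3p: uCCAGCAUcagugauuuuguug
miR-338-5p: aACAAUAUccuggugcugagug
All 4 were matched in the RefSeq table, and each is 22 bases long. The 4 seeds differ from each other, and none is shared with another of the 1679 distinct mature names in that table. No other entry of the count table had counts within 1% of those of any of the 4 in all 6 libraries, so none of the 4 has a duplicate entry under another name; how reads with several matches were counted is not given in the sources used here.

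The hairpins are shown because the arms are compared below; capitals mark the mature arms, with the 5p arm first.
Mir22: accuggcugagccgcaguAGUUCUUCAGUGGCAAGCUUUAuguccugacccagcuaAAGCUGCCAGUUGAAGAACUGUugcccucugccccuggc
Mir338: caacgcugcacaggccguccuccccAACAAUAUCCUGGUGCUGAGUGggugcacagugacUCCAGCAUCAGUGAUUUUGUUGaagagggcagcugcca
Both lie on chromosome 11 of GRCm38.p6, 44550955 bases apart. The Mir22 hairpin (chr11:75463716-75463810, plus strand) falls inside an exon of the non-coding host transcript Mir22hg in GENCODE. It also falls inside an exon of a transcript of Tlcd2, a protein-coding gene. The Mir338 hairpin (chr11:120014765-120014862, minus strand) overlaps no exon of Aatk and so is intronic, on the strand of that gene.

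After 1 entry was kept for each mature name, the induced libraries held 11379870, 9089319 and 13946613 reads and the uninduced libraries 9162211, 8697384 and 11714847 reads in trials 1, 2 and 3. Levels are given as CPM, reads normalised to library size, with the library sizes scaled by TMM factors. Before that scaling, a count of 0 in a library allows up to 0.215 to 0.345 CPM. Haematopoietic and myeloid markers were abundant, with 6 markers summing to 75527 to 92923 CPM in induced and 73528 to 92444 CPM in uninduced libraries. Most of that sum was miR-142a-5p, with a mean of 63535 CPM in induced and 61398 CPM in uninduced libraries. In that list 0 of 6 passed edgeR's test with the group alone, where 6.1% of all microRNAs tested did. With the trial as a block 1 passed upward, where 10.7% of all tested did. It was miR-146a-5p, with a mean of 6.55 CPM in induced and 4.43 CPM in uninduced libraries. Of 6 epithelial markers 5 were tested, and 3 passed upward (4 with the block), where 3.43% of all microRNAs tested did (10.7% with the block). The summed level of the list was 80.9 to 100.3 CPM in induced and 32.1 to 39.6 CPM in uninduced libraries. Of 5 stromal markers 3 were tested, and 1, miR-199a-3p, passed downward, where 2.67% of all tested did. With the block miR-143-3p and miR-145a-5p passed downward too, so 3 did, beside 11.0% of all tested. That list summed to 145 to 215 CPM in induced and 230 to 270 CPM in uninduced libraries. Whether these markers have a part in the results on miR-22 and miR-338 was not tested. Whether each trial was a culture of its own is not in the labels, and p-values therefore cover only the spread among these 6 libraries, part of which may be technical.

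miR-22-3p was one of the main microRNAs of these cells, while the other arm of its hairpin and both arms of miR-338 were far less abundant. By mean level over the 6 libraries miR-22-3p was number 7 of 1915 names, between miR-16-5p and miR-26a-5p, and its place within single libraries ran from 6 to 9. Of the reads kept with 1 entry per name, it took 4.52% ± 0.55 in induced and 3.68% ± 0.48 in uninduced libraries (SD, n = 3 each). miR-338-3p was number 115, between miR-139-5p and miR-421-3p. miR-338-5p was number 197, between miR-16-1-3p and miR-7a-5p, and miR-22-5p was number 295, between miR-30c-2-3p and miR-3061-3p. Over the 6 libraries, the range of each of the 4 overlapped those of both these neighbours. The order miR-22-3p, miR-338-3p, miR-338-5p, miR-22-5p held in each of the 6 libraries, with no overlap between neighbours in that order. All 4 are equally long, but adapter ligation depends on sequence, so read levels of different microRNAs are not in strict proportion to molecules.

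**Figure D1:**
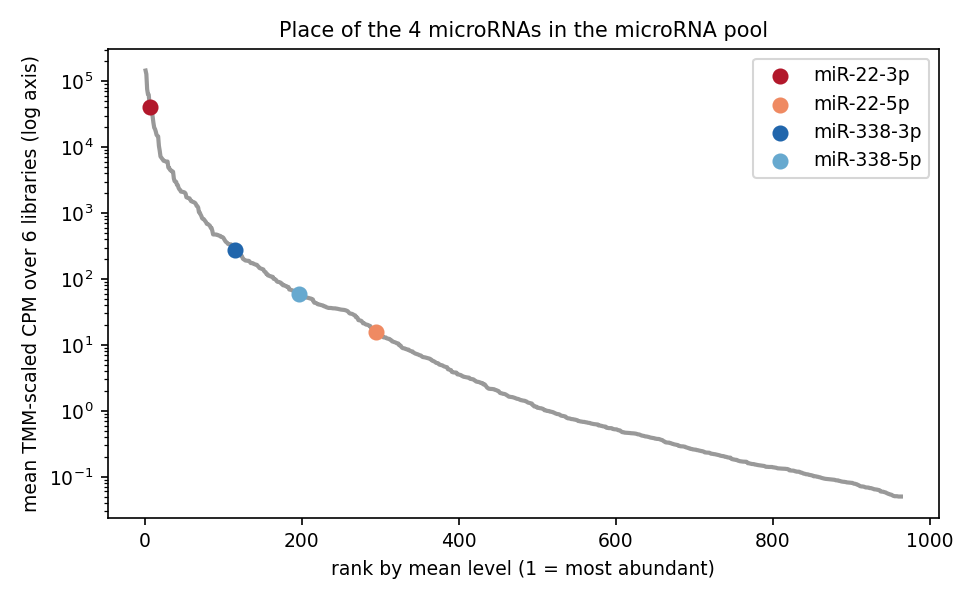
Mean TMM-scaled CPM over the 6 libraries (log axis) against rank by mean level, with the 4 microRNAs as coloured points on the grey curve of the names above 0.05 CPM. miR-22-3p sits near the top at rank 7, followed by miR-338-3p at 115, miR-338-5p at 197 and miR-22-5p at 295.

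miR-22-3p, the arm held to carry the function of miR-22, was higher in induced cells in every trial, but its change did not pass the test without the trial as a block. Its levels were 48327, 45013 and 41349 CPM in the induced libraries of trials 1, 2 and 3, against 33797, 40889 and 36027 CPM in the uninduced libraries of the same trials. The 3 induced libraries lay above the 3 uninduced ones, with a narrow gap between induced trial 3 and uninduced trial 2; on CPM without the TMM factors the groups overlapped. Counting error was small beside this spread, since each library held between 316546 and 581879 reads of miR-22-3p. Its fold change, induced over uninduced, came to 0.28 on the log2 scale (SE 0.11, 95% interval 0.04 to 0.53, n = 3 per group), with an unadjusted p of 0.027 and an adjusted p of 0.171 in edgeR's quasi-likelihood test over all 525 microRNAs tested. With the trial as a block the log2 change was again 0.28 (SE 0.09) and passed, with an edgeR adjusted p of 0.037. In RNA from bulk cells, more cells that express a microRNA and more of it per cell cannot be told apart.

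The blocked call for miR-22-3p was lost without trial 1 and without trial 3, but only without trial 1 was its blocked log2 change lower. Over all microRNAs 114 passed with the block, and 66, 60 and 12 passed with it without trials 1, 2 and 3. Within trials the log2 change was 0.52 in trial 1, 0.14 in trial 2 and 0.20 in trial 3. With both libraries of trial 1 left out the blocked log2 change was 0.17 and the edgeR adjusted p 0.454, without trial 3 they were 0.31 and 0.249, and without trial 2 the call held with 0.35 and 0.035.

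Because miR-22-3p is so abundant, this small fold change was a large number of reads. Its mean level was 7992 CPM higher in induced than in uninduced cells, the largest difference upward of all 1915 names, ahead of miR-21a-5p (5401 CPM), miR-16-5p (5318 CPM) and miR-146b-5p (4357 CPM). Without the TMM factors the difference was 0.84 percentage points of the reads kept with 1 entry per name, and still ranked number 1. These differences were not tested as such. For miR-146b-5p, the most abundant microRNA, the difference lay within the spread of its libraries, with 146970 CPM ± 16670 in induced and 142613 CPM ± 21777 in uninduced cells (SD, n = 3 each).

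miR-22-5p, the arm that is mostly degraded, was rare, and its groups overlapped, though it was higher in the induced library of each trial. Its log2 change was 0.55 in trial 1, 0.17 in trial 2 and 0.07 in trial 3. It had 21.1, 19.2 and 12.2 CPM in the induced libraries of trials 1, 2 and 3, against 14.4, 17.0 and 11.6 CPM in the uninduced ones. These levels rest on 166 to 254 reads per induced library and 127 to 153 reads per uninduced library. In induced trial 3 the exact Poisson 95% interval was 10.4 to 14.2 CPM and in uninduced trial 3 it was 9.69 to 13.8 CPM, so that pair did not differ beyond counting error. The lowest library of each group was that of trial 3. The log2 change was 0.28 (SE 0.24, 95% interval -0.25 to 0.82), close to that of the 3p arm, with an edgeR adjusted p of 0.547 and 0.141 with the block.

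miR-338-3p, the arm of miR-338 reported as PU.1-induced, was at the same level in both groups to within its spread. It had 255, 289 and 292 CPM in the induced libraries of trials 1, 2 and 3, against 251, 282 and 296 CPM in the uninduced ones. The groups overlapped along their whole range, with trial 1 lowest in both. The means were 279 CPM ± 20.5 in induced and 277 CPM ± 23.2 in uninduced cells (SD, n = 3 each), and the log2 change was 0.01 (SE 0.13, edgeR adjusted p = 0.970). The 95% interval ran from -0.28 to 0.31, and with the block from -0.17 to 0.19, so a change of 2-fold in either direction lies outside both. The sign of a value this near 0 is not fixed, and it was -0.01 with RLE factors in place of TMM.

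miR-338-5p, the less abundant arm, was higher in induced cells in all 3 trials. It had 60.6, 75.9 and 59.6 CPM in the induced libraries of trials 1, 2 and 3, against 52.1, 54.7 and 51.0 CPM in the uninduced ones. The groups did not overlap, and induced trial 2 was the highest library by a wide margin. Its log2 change was 0.31 (SE 0.15, 95% interval -0.02 to 0.64), which edgeR did not pass (adjusted p = 0.253). With the block it was 0.30 (SE 0.10) and passed, with an edgeR adjusted p of 0.039. That call was lost whichever trial was left out, with blocked edgeR adjusted p-values of 0.084 without trial 1, 0.282 without trial 2 and 0.144 without trial 3. The blocked log2 change was 0.35 without trial 1, 0.22 without trial 2 and 0.33 without trial 3. Fewer microRNAs passed in each of these fits than in the full blocked fit, as given above.

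**Figure D2:**
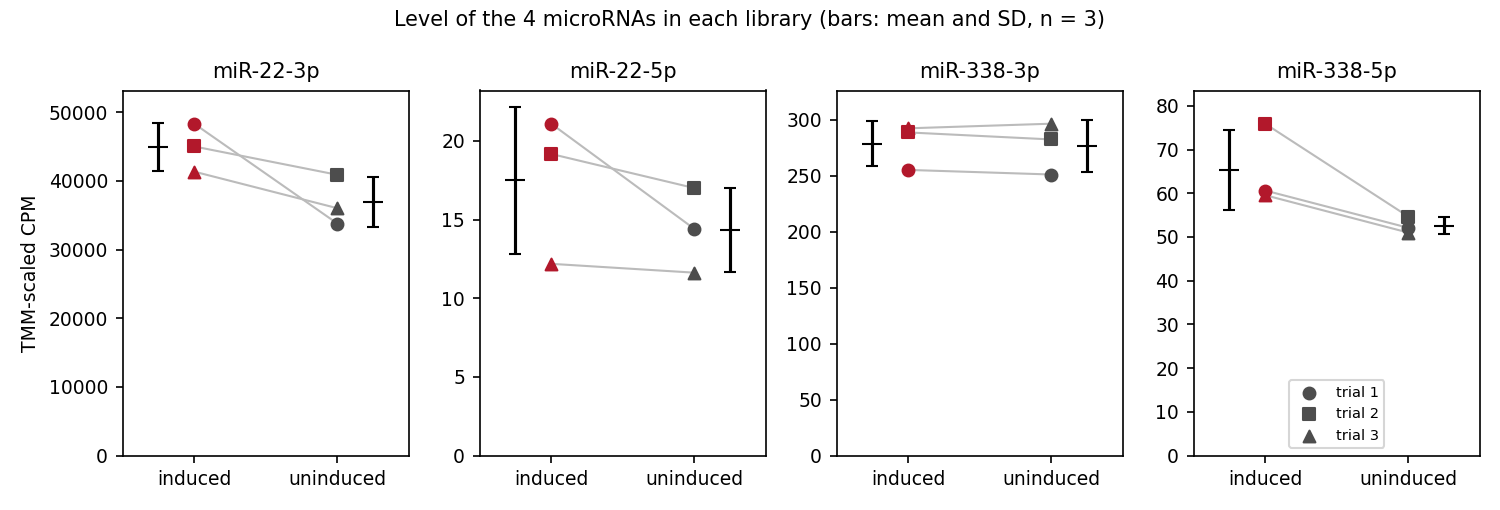
TMM-scaled CPM of the 4 microRNAs in each library, 1 panel each with its own linear axis from 0, with induced libraries (red) left of uninduced ones (grey), lines joining libraries of the same trial and bars giving the mean and SD (n = 3). The lines of miR-22-3p, miR-22-5p and miR-338-5p run higher at the induced end in all 3 trials. Those of miR-338-3p are nearly level, and miR-22-5p differs by trial as much as by group.

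Counts among the 4 are set here beside the same counts over all microRNAs tested. In the fit with the group alone, 0 of the 4 passed edgeR's adjusted threshold of 0.05, where 32 of 525 microRNAs (6.1%) did. At an unadjusted edgeR p under 0.05 there was 1 of the 4, miR-22-3p, where 109 of 525 (20.8%) were, and DESeq2 passed 0 of the 4, where it passed 40 of 611 (6.55%). With the trial as a block 2 of the 4 passed, both higher, where 56 of 525 (10.7%) were called higher and 21.7% in either direction, and the same 2 had an unadjusted p under 0.05, where 37.1% of all tested did. Non-overlapping groups with the induced one higher were seen for 2 of the 4 and for 84 of 525 (16.0%), and groups apart in either direction for 27.6% of all tested. A higher level in the induced library of each of the 3 trials was seen for 3 of the 4 and for 152 of 525 (29.0%). Of all tested microRNAs, 108 had a higher log2 change than miR-338-5p, 119 a higher one than miR-22-3p and 266 a higher one than miR-338-3p.

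**Figure D3:**
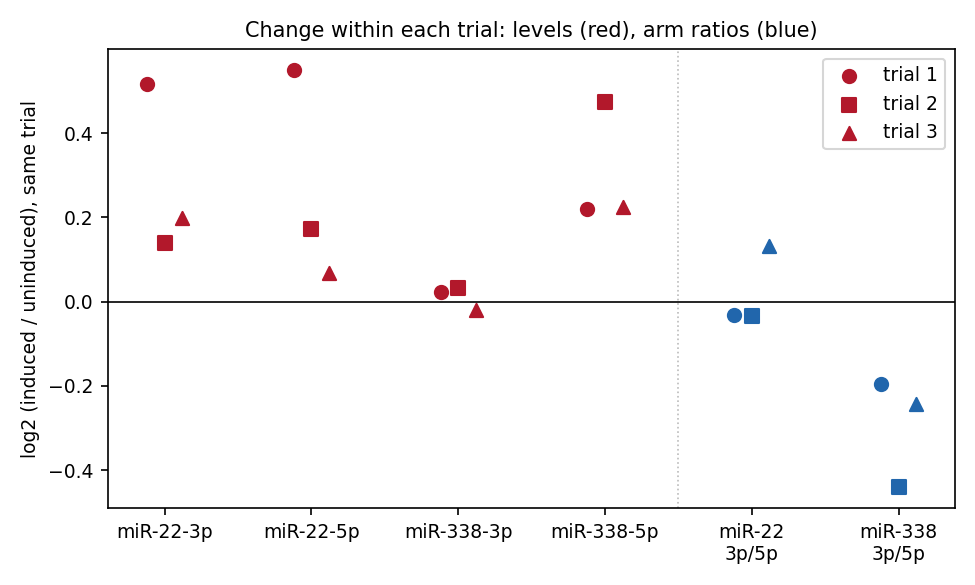
Log2 change of induced over uninduced within trials 1 (circle), 2 (square) and 3 (triangle), for the level of the 4 microRNAs (red) and for the 3p to 5p ratio of both hairpins (blue). miR-22-3p ranges from 0.14 to 0.52, miR-22-5p from 0.07 to 0.55 and miR-338-5p from 0.22 to 0.47. miR-338-3p stays between -0.02 and 0.03, and the arm ratio of miR-338 is below 0 in each trial.

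The hairpins differed greatly in how strongly one arm prevailed. For miR-22 there were 2291, 2348 and 3392 reads of the 3p arm per read of the 5p arm in the induced libraries of trials 1, 2 and 3, and 2345, 2404 and 3098 in the uninduced ones. The 5p arm was thus 0.029% to 0.044% of the miR-22 reads in induced and 0.032% to 0.043% in uninduced libraries, and trial 3 had the highest ratio in both groups. Among 141 hairpins with a single entry for each arm and at least 10 reads of both arms in at least 3 libraries, none favoured its 3p arm more than miR-22, and 2 favoured their 5p arm more strongly than miR-22 its 3p arm. Hairpins whose lesser arm was rarer than this were not in the set.

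The miR-22 arms kept the same proportion to within their error. The log2 ratio of 3p to 5p was 11.36 on average in induced and 11.34 in uninduced cells, a change of 0.02 (SE 0.23, 95% interval -0.49 to 0.54, limma adjusted p = 0.983 over the 141 hairpins). The interval is wide, since the 5p arm had at most 254 reads in a library. With the trial as a block it narrowed to -0.26 to 0.30.

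For miR-338 both arms were present in amounts of the same order, and the 5p share was higher in induced cells in every trial. There were 4.21, 3.80 and 4.91 reads of the 3p arm per read of the 5p arm in the induced libraries of trials 1, 2 and 3, against 4.82, 5.16 and 5.81 in the uninduced ones. The 5p arm made up 19.2%, 20.8% and 16.9% of the miR-338 reads in induced and 17.2%, 16.2% and 14.7% in uninduced libraries. The Wilson 95% intervals were 19.5% to 22.2% in induced and 15% to 17.6% in uninduced cells in trial 2, well apart. They were barely apart in trial 3 and overlapped in trial 1. Such intervals leave out every error but that of counting, as no molecular identifiers are named in the protocols. Over the groups the shares overlapped, since induced trial 3 had a lower 5p share than uninduced trial 1.

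The change of the miR-338 arm ratio did not pass the test. The log2 ratio of 3p to 5p was 2.10 on average in induced and 2.39 in uninduced cells, a difference of -0.29 (SE 0.19, 95% interval -0.72 to 0.13, limma adjusted p = 0.983). Within trials the difference was -0.19, -0.44 and -0.24. A ratio lower in each of the 3 trials was seen for 30 of the 141 hairpins (21.3%). Groups apart were seen for 10 of the 141 (7.09%), 2 of them lower in induced cells (1.42%), but for neither miR-22 nor miR-338. With the block the interval was -0.52 to -0.06 and the unadjusted p 0.016, where 30 of the 141 hairpins were under 0.05, but the limma adjusted p was 0.144. In this test 0 of 141 hairpins (0.0%) passed with the group alone, 6 (4.26%) had an unadjusted limma p under 0.05, and 4 (2.84%) passed with the block. Larger changes in either direction were seen for 40 hairpins, and the median size of change over all 141 was 0.15 on the log2 scale.

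**Figure D4:**
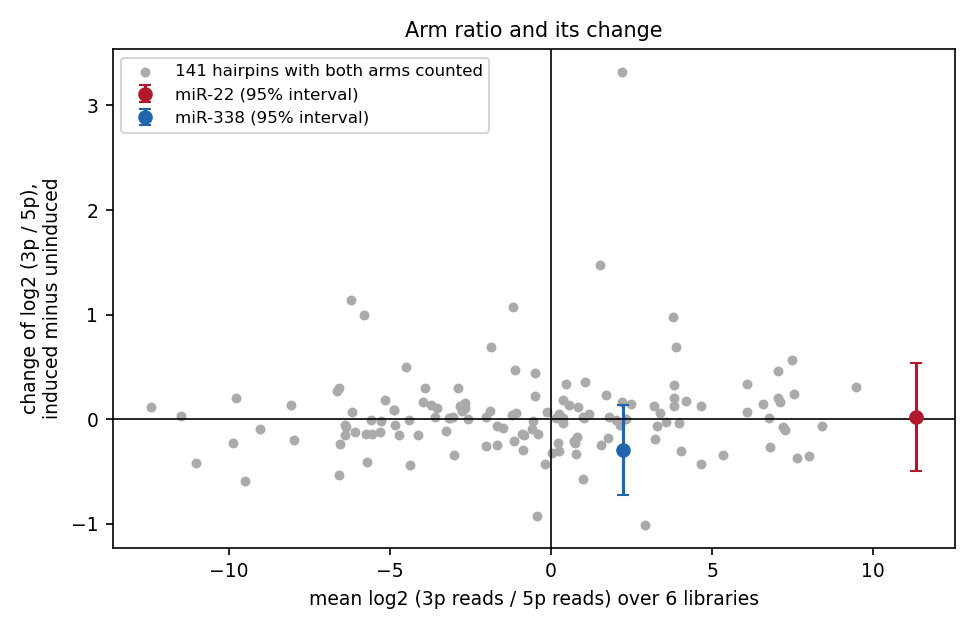
Change of the log2 ratio of 3p to 5p reads, induced minus uninduced, against the mean of that ratio over the 6 libraries, for 141 hairpins (grey), with limma 95% intervals for miR-22 (red) and miR-338 (blue). miR-22 stands at the far right, with the strongest 3p bias and a change of 0.02; miR-338 has a modest 3p bias and a change of -0.29, with an interval that includes 0.

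The change of miR-22-3p was not shown to differ from that of miR-338-3p. Their ratio within a library does not depend on library size, and it was 189, 156 and 141 in the induced libraries of trials 1, 2 and 3, against 135, 145 and 122 in the uninduced ones. The groups overlapped, because induced trial 3 lay below uninduced trial 2. The log2 ratio was 7.33 ± 0.21 in induced and 7.06 ± 0.13 in uninduced cells (SD, n = 3 each), a difference of 0.27, with an exact two-sided permutation p of 0.2, where 0.1 is the smallest that 3 against 3 libraries can give. The ratio was higher in the induced library of each trial, by 0.49, 0.11 and 0.22 on the log2 scale. The exact paired p was 0.25, the smallest that 3 pairs can give. Neither exact test could fall under 0.05 with these libraries, so neither can decide whether the changes differ.

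The hairpins that overlap or lie near those of miR-22 and miR-338 were mostly unread, apart from miR-132 and miR-212. The hairpin of miR-3065 lies on the opposite strand of miR-338, with all of its 87 bases inside the Mir338 hairpin, and its 5p arm is a perfect complement of 21 bases of miR-338-3p. It is shown with its seed in capitals for comparison with miR-338-3p.
miR-3065-5p: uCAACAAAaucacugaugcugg
Both arms of miR-3065 had 0 reads in all 6 libraries, while the arms of miR-338 had 21515 reads together, so no read was counted for the antisense hairpin; whether the counting used strand is not given in the sources used here. Within 500 kb, the other hairpin near miR-338, miR-6935, had at most 7 reads per arm in the 3 libraries of a group. Near miR-22, miR-3971 had 0 reads, and the miR-132 and miR-212 hairpins lie 290 kb away. miR-132-3p, an immune-response and neuronal microRNA, passed the test downward, with 38.5 CPM ± 5.47 in induced and 66.1 CPM ± 6.00 in uninduced cells (SD, n = 3 each; log2 change -0.78, edgeR adjusted p = 0.020), and the other arms of these hairpins had log2 changes of -0.86 (miR-212-3p), -0.44 (miR-212-5p) and -0.43 (miR-132-5p) and did not pass. With the block miR-212-3p and miR-212-5p passed downward as well, with edgeR adjusted p-values of 0.000305 and 0.013, while miR-132-5p did not (0.180).

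MicroRNAs whose course over the 6 libraries came nearest to miR-22-3p included members of the miR-30 family. Among 164 other microRNAs of at least 100 CPM, after each was centred on its own mean of log2 CPM, the smallest root-mean-square differences from miR-22-3p were those of miR-1198-5p (0.076), miR-30b-5p (0.098), miR-532-5p (0.10) and miR-30d-5p (0.10), against a median of 0.264. Their log2 changes were 0.31, 0.27, 0.10 and 0.34, and none passed edgeR with the group alone. With the block miR-1198-5p (adjusted p = 0.035), miR-30b-5p (0.037) and miR-30d-5p (0.0082) passed upward in edgeR, and miR-532-5p did not (0.397); these were picked for their likeness to miR-22-3p, so their direction is no separate observation. For miR-338-3p the nearest were miR-340-5p (0.061), miR-30e-5p (0.068), miR-582-3p (0.071) and miR-101b-3p (0.075), against a median of 0.198, with log2 changes between -0.10 and 0.09, none past the test in either fit. These are descriptions over 6 libraries that share trial and group.

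miR-338 is best known from the nervous system, so neural microRNAs were followed beside it. miR-124-3p and miR-219a-2-3p, a neuronal and an oligodendrocyte microRNA, had 0 reads in all libraries. miR-219a-5p was read in every library, with a mean of 9.49 CPM in induced and 10.3 CPM in uninduced cells. It did not pass edgeR in either fit. miR-9-5p had 38 reads in induced and 11 in uninduced libraries. Its groups did not overlap and it was higher in induced cells in every trial, but it was not among the microRNAs tested. miR-9-3p had 1 read in induced and 0 in uninduced libraries. The summed level of the 6 neural markers was 313 to 363 CPM in induced and 328 to 409 CPM in uninduced libraries, nearly all of it miR-128-3p, which many other tissues also express and which did not pass edgeR in either fit.

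The other microRNAs reported as PU.1 responders were set beside the 4 as a list of 22 names, 21 of which were tested; miR-146a-3p had 0 reads. The list covers miR-146a, a brake on inflammatory signalling, miR-342, from an intron of Evl, the inflammatory miR-155, the miR-23a cluster, the granulocytic miR-223, miR-322 and miR-503, miR-29b and the haematopoietic miR-142a. Of the 21 tested, 2 rose, 0 fell and 19 did not pass, where 3.43% of all tested microRNAs were called higher and 2.67% lower. The 2 that rose were the arms of miR-342, which were almost unread in uninduced cells (1 read of the 3p arm and 0 of the 5p arm in 3 libraries), so that the filter on low counts kept them only through their induced level. Without adjustment, 8 of the 21 had an edgeR p under 0.05, where 20.8% of all tested did. DESeq2 called 3 higher and 0 lower, where it called 3.11% of all it tested higher and 3.44% lower. With the block 5 were higher and 2 lower, where 10.7% of all tested were called higher and 11.0% lower; those higher were miR-146a-5p and the arms of miR-322 and miR-342, and those lower were miR-27a-5p and miR-155-3p. The median log2 change of the list was -0.07, beside 0.02 for all 525.

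Of this list, the 8 most abundant were the arms of miR-142a, miR-223-3p and miR-223-5p, and miR-23a-3p, miR-27a-3p, miR-24-3p and miR-24-2-5p. miR-142a-5p had 63535 CPM ± 11122 in induced and 61398 CPM ± 10982 in uninduced cells (SD, n = 3 each), for which the log2 change was 0.05 (SE 0.16), so it was more abundant than miR-22-3p in every library but, like miR-338-3p, had a change near 0. miR-142a-3p had the same log2 change, 0.05. The other 6 had log2 changes between -0.29 and -0.06, and none of the 8 passed in either fit; miR-24-3p has entries for several hairpins, whose shares are not known. Next in level was miR-322-5p, named after its values were seen, which had 869 CPM ± 34.1 in induced and 636 CPM ± 49.3 in uninduced cells (SD, n = 3 each), and its log2 change was 0.45, where the edgeR adjusted p was 0.056 and, with the block, 0.0034. In the list 7 of the 21 had a higher log2 change than miR-22-3p.

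**Figure D5:**
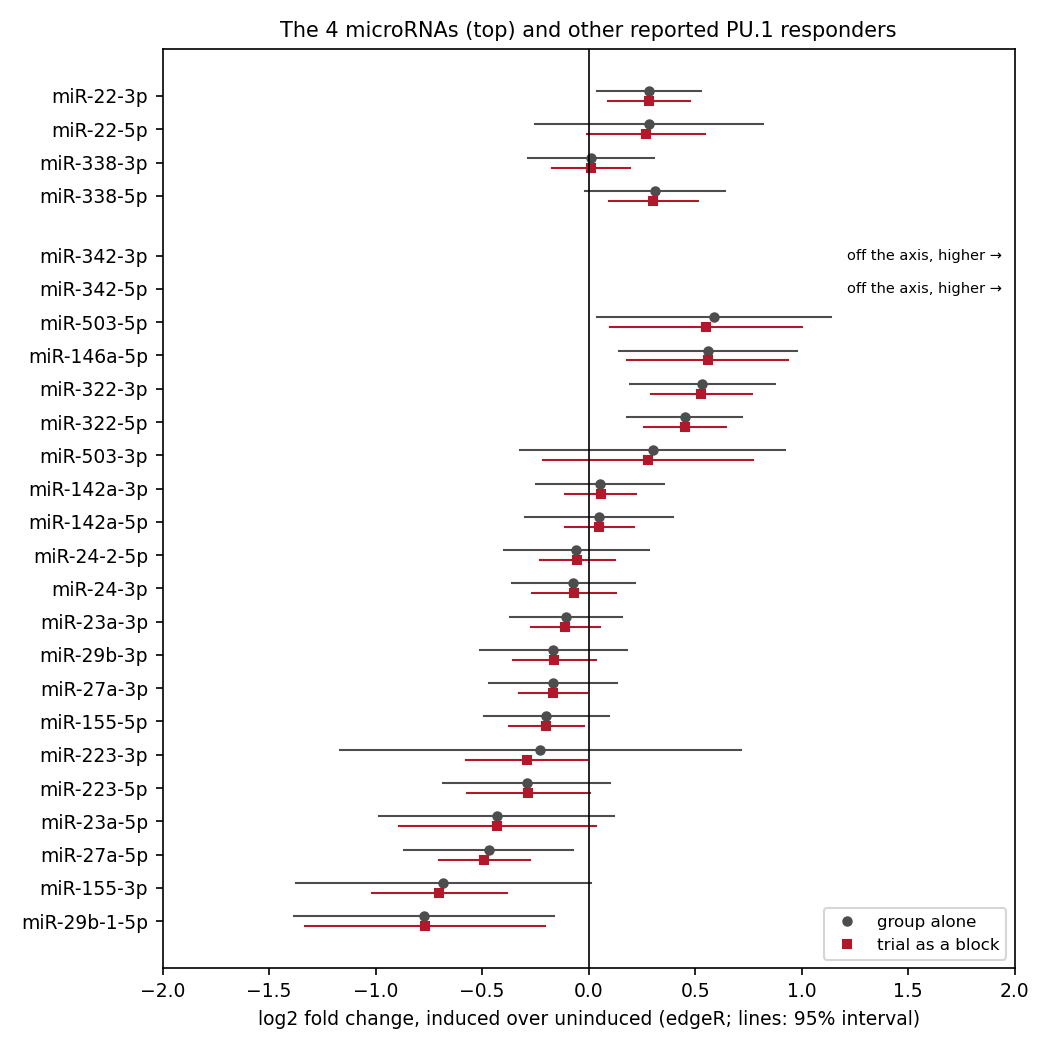
Log2 fold change of induced over uninduced with edgeR 95% intervals, for the 4 microRNAs (top) and 21 other reported PU.1 responders, in the fit with the group alone (grey circles) and with the trial as a block (red squares). The blocked intervals of miR-22-3p and miR-338-5p lie above 0 and those of miR-338-3p are centred near 0, while the arms of miR-342, almost unread without induction, lie beyond the right end of the axis.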

How the data were processed

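The authors deposited raw read counts per mature microRNA, per the file headers, with 2061 entries for 1915 names, and the same counts as CPM (reproduced from the counts within 0.005), which were not used further. The submitters' processing notes list mm10, Trim Galore (0.4.0) and DESeq2 with the version 2.1.8.0; alignment was to miRBase, per the series' design text. Which program counted the reads, which miRBase release was used and how multiple matches were treated is not given in the sources used here. For the 83 names with several entries, the highest total was kept.

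Tests on levels used R 4.3.3 and edgeR 4.0.16 (TMM, filterByExpr, robust quasi-likelihood test, two-sided, group alone, Benjamini-Hochberg at 0.05). The 525 names tested held 99.987% of the reads kept. SE is the log2 change over the root of F. Arm ratios, log2((3p + 0.5)/(5p + 0.5)), were tested with limma 3.58.1, with a variance trend on the lesser arm's count. DESeq2 1.42.0 was an alternative. The fits of levels and arm ratios with the group alone were also run on simulated counts. Those counts had no trial effect and the blocked fits were not run on them, so they say nothing on the blocked calls.

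Both groups share trial numbers in the labels. Deviations from group means correlated by 0.33, 0.45 and 0.53 within trials 1, 2 and 3, each over 0.1, so the trials were taken as pairs and the blocked fit is given where it changes the call of a named microRNA. Libraries of a group differed beyond sampling noise (lowest chi-square 98.7 per degree of freedom).

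The members, lists and tests were chosen with earlier results of these data known. Named microRNAs are the 4 members, those sharing a seed, those within 500 kb, the neighbours in abundance, the 4 nearest in pattern to each 3p arm and up to 8 of the PU.1 list by level. miR-21a-5p, miR-146b-5p, miR-16-5p as a gain, the arms of miR-322 and miR-342, miR-146a-5p, miR-27a-5p, miR-155-3p and marker microRNAs were named after their values were seen.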

Additional observations from a re-analysis of the deposited data

How the results depend on the processing

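miR-22-5p passed no threshold under any of the 14 alternatives run, nor did the arm ratio of either hairpin under 12. With the trial as a replicate block, miR-22-3p (0.28) and miR-338-5p (0.30) passed, as did miR-22-3p with the block and without trial 2 (0.35). Leaving out single libraries gave 0.20 to 0.37 for miR-22-3p, 0.13 to 0.45 for miR-22-5p and 0.18 to 0.37 for miR-338-5p, none past the test. miR-338-3p changed sign, at -0.0053 with RLE factors, -0.016 with DESeq2, -0.0027 with the block without trial 2, and from -0.071 to 0.077 without single libraries. The miR-22 arm ratio ranged from -0.16 to 0.15 without single libraries and was -0.032 with the block without trial 3; that of miR-338 ranged from -0.39 to -0.21. The difference in the ratio of miR-22-3p to miR-338-3p ranged from 0.16 (without induced replicate 1) to 0.37.

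The count of microRNAs past the threshold was 32, 114 with the replicate block, 12 to 41 without single libraries (lowest without the uninduced library of trial 1, then 14 and 16 without the induced libraries of trials 2 and 1, and 17 without the uninduced library of trial 2), and 66, 60 and 12 with the block without trials 1, 2 and 3. The PU.1 list had 2 higher and 0 lower, 5 and 2 with the replicate block, 2 to 3 and 0 without single libraries, 1 higher with the block without trial 3, and 2 and 4 lower with it without trials 1 and 2. Hairpins past the threshold numbered 0, 4 with the replicate block, 2 with a pseudocount of 5, 0 to 1 without single libraries, and 2, 6 and 5 with the block without trials 1, 2 and 3. The block changed no other call on the 4 microRNAs. Fits without 1 trial were chosen after seeing the data, and the causes of these shifts were not tested. Depth limits mainly miR-22-5p.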
